A study of Mus musculus with 14 samples.

Results

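The experiment described here compared mouse hepatoblasts carrying IDH2 R172K, a mutant form of isocitrate dehydrogenase 2, with the same cells carrying wild-type IDH2, both grown on collagen. It rests on 4 of the 14 arrays of the series, 2 cultures for each form, and on 12393 genes, each represented by the probe set with the highest mean over the 14 arrays. Both groups were hepatoblasts (HBs) prepared from wild-type mice at embryonic day 14 and immortalised by plating at clonal density, and both grew on rat tail collagen with epidermal growth factor, insulin-like growth factor II and insulin in the medium. The introduced forms were under a doxycycline-inducible system. A dose of 25 ng/mL doxycycline was stated for the IDH1 experiments, and none for IDH2. The sources used here do not give the species of the introduced sequences, nor whether each line was a single clone. The other groups used below were the empty vector, wild-type IDH1 and IDH1 R132C on collagen, and the empty vector on uncoated plates for up to 5 days, with 2 cultures each. The whole series has 7 groups.

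IDH2 is the mitochondrial enzyme that converts isocitrate to 2-oxoglutarate. Changes at residue R172 of IDH2, like changes at R132 of the cytosolic enzyme IDH1, give the enzyme a new activity that turns 2-oxoglutarate into 2-hydroxyglutarate, which competes with 2-oxoglutarate at dioxygenases that act on histones, DNA and the hypoxia factor. Hepatoblasts are the fetal progenitors of both hepatocytes and bile duct cells, and HNF4A is a nuclear receptor that drives the hepatocyte programme. The series title names inhibition of HNF4A by mutant IDH and bile duct cancer as its subject.

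The values are probe set intensities, given here as log2, where a difference of 1 is a doubling. The R172K replicate 1 array had a median intensity of 134.9, against 145.9 for R172K replicate 2 and 144.9 and 147.5 for wild-type IDH2, and its genes lay a median of 0.088 below those of R172K replicate 2 on the log2 scale. The R172K replicates also differed more from each other than any other pair of replicates: the SD of the difference over genes was 0.307 for R172K, 0.195 for wild-type IDH2 and 0.181 to 0.238 for the other groups. The 3' minus 5' difference of the Gapdh control probe sets, a sign of RNA integrity, was 0.14 and 0.08 for R172K and 0.09 and 0.06 for wild-type IDH2. That of Tfrc was 0.76 and 1.76 for R172K and 1.39 and 1.51 for wild-type IDH2. Both replicates are therefore given for the genes described at length. The lower quartile of the probe sets was at log2 4.72 to 4.81, depending on the array, and levels near or below that are close to background.

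Hnf4a, Hhex, the plasma proteins Ambp, Hpx and Rbp4, 4 of 20 intestinal genes, Cfb and Ccl2 were among the genes lower with R172K, and Prss23, Wnt7a, Angptl6 and Scel among those higher. With limma and a Benjamini-Hochberg adjusted p under 0.05, 74 genes rose (0.597% of those tested) and 141 fell (1.14%), 215 in all (1.73%). The median rise was 0.68 and the median fall -0.60 on the log2 scale. Of these, 18 rises and 19 falls were at least 2-fold. All 215 had both R172K arrays on one side of both wild-type IDH2 arrays, as did 1792 genes (14.5%) upwards and 3223 (26%) downwards among all genes tested. The median difference of all genes from the wild-type mean was -0.09 in R172K replicate 1 and -0.01 in R172K replicate 2, -0.05 in the fit, and 65.6% of the calls were falls. After cyclic loess scaling, 98 rose and 108 fell (52.4% falls). The rises had medians of 0.68 in R172K replicate 1 and 0.67 in R172K replicate 2 relative to the wild-type mean, and the falls had medians of -0.65 and -0.56. Since these genes were called on the same arrays, the medians are a description. Of the falls, 98 of 141 lay further from the wild-type mean in R172K replicate 1, and of the rises 37 of 74 did. The number of calls depended on single cultures: it was 86 without R172K replicate 1, 2332 without R172K replicate 2, 36 without wild-type IDH2 replicate 1 and 14 without wild-type IDH2 replicate 2. With the 4 arrays alone it was 41, and with array weights, which gave less weight to the R172K arrays, it was 9. No called gene changed sign in any of the 14 alternatives. Since these genes had no overlap, leaving out 1 culture could not change a sign, and several other settings left the difference itself unchanged.

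**Figure D1:**
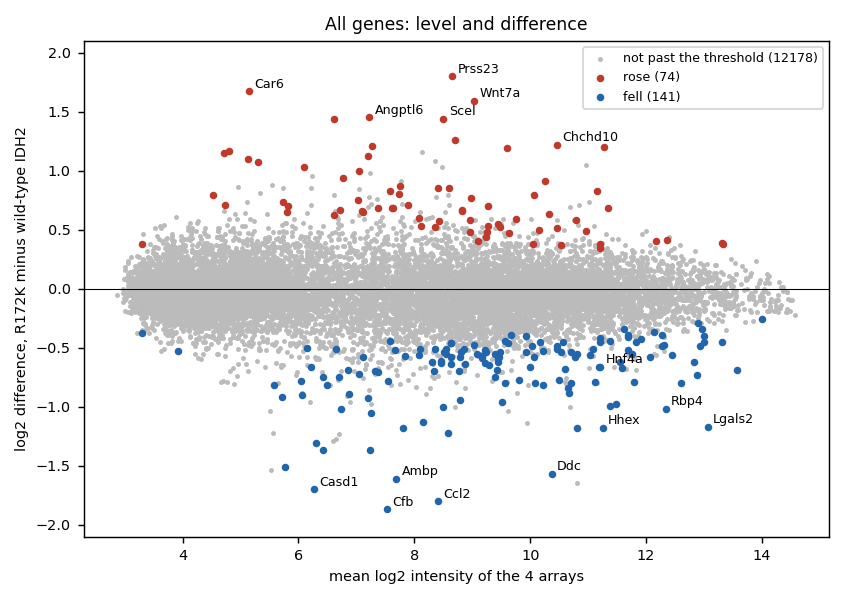
Each point is a gene, with its mean log2 intensity over the 4 arrays on the x axis and the log2 difference, R172K minus wild-type IDH2, on the y axis. The 74 rises (red) and 141 falls (blue) past an adjusted p of 0.05 spanned most of the range of levels, from 1.80 for Prss23 to -1.87 for Cfb.

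The largest falls were those of Cfb and Ccl2. Cfb, complement factor B of the alternative pathway, read 8.51 and 8.42 in the wild-type IDH2 cultures and 6.62 and 6.58 in the R172K cultures, a 3.65-fold fall (log2 difference -1.87, SE 0.26, limma adjusted p = 0.00456). Ccl2, a chemokine that attracts monocytes, read 9.23 and 9.36 with wild-type IDH2 and 7.47 and 7.52 with R172K (-1.80, SE 0.33, adjusted p = 0.0195). Both R172K cultures lay more than 3-fold below both wild-type cultures for each of these genes, and the replicates within a form were close. Ambp, the precursor of the plasma proteins alpha-1-microglobulin and bikunin, fell from 8.33 and 8.67 to 7.09 and 6.68 (-1.61, SE 0.33, adjusted p = 0.0300). Hpx, hemopexin, the plasma carrier of free heme, fell from 7.77 and 8.07 to 6.76 and 6.35 (-1.37, SE 0.25, adjusted p = 0.0194). Rbp4, the plasma carrier of retinol, was far more strongly detected and fell from 12.70 and 13.01 to 12.01 and 11.66 (-1.02, SE 0.14, adjusted p = 0.00419). Of 23 measured secreted hepatocyte proteins these 3 fell and none rose, beside 1.14% falls and 0.597% rises among all genes tested. The median difference of the list was -0.13, against -0.05 for all genes. The Ccl2, Ambp and Hpx calls were lost without R172K replicate 1 and without either wild-type IDH2 culture, and those of Cfb and Rbp4 without wild-type IDH2 replicate 2.

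Ddc, the decarboxylase that makes dopamine and serotonin from their amino acid precursors, read 11.20 and 11.10 with wild-type IDH2 and 9.71 and 9.46 with R172K (-1.57, SE 0.16, limma adjusted p = 0.00156), and its call held in all 14 alternatives. Casd1, a Golgi sialic acid O-acetyltransferase, fell from 7.0 and 7.23 to 5.27 and 5.56 (-1.70, SE 0.20, adjusted p = 0.0025), but its other probe set differed by only -0.12. Pik3c2g, a class II phosphoinositide 3-kinase found in liver, fell from 6.49 and 6.56 to 5.53 and 4.50, with the R172K cultures 1 log2 unit apart. Tnnc1, the troponin C of slow and cardiac muscle, fell from 7.13 and 7.07 to 5.35 and 6.11. Parp14, an ADP-ribosyltransferase, fell from 6.72 and 7.20 to 5.30 and 6.01, Slfn2, a Schlafen family gene, from 9.33 and 9.06 to 7.76 and 8.19, and Serpinb9, an inhibitor of granzyme B, from 8.67 and 8.75 to 7.41 and 7.76. These 3 falls were -1.31, -1.22 and -1.13 on the log2 scale. Serpinb9 had an adjusted p of 0.0493, close to the threshold, and lost its call in 9 of the alternatives, among them without R172K replicate 1 and without either wild-type IDH2 culture. The calls of Tnnc1 and Parp14 were lost without those same 3 cultures, and that of Pik3c2g without either wild-type IDH2 culture.

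**Figure D2:**
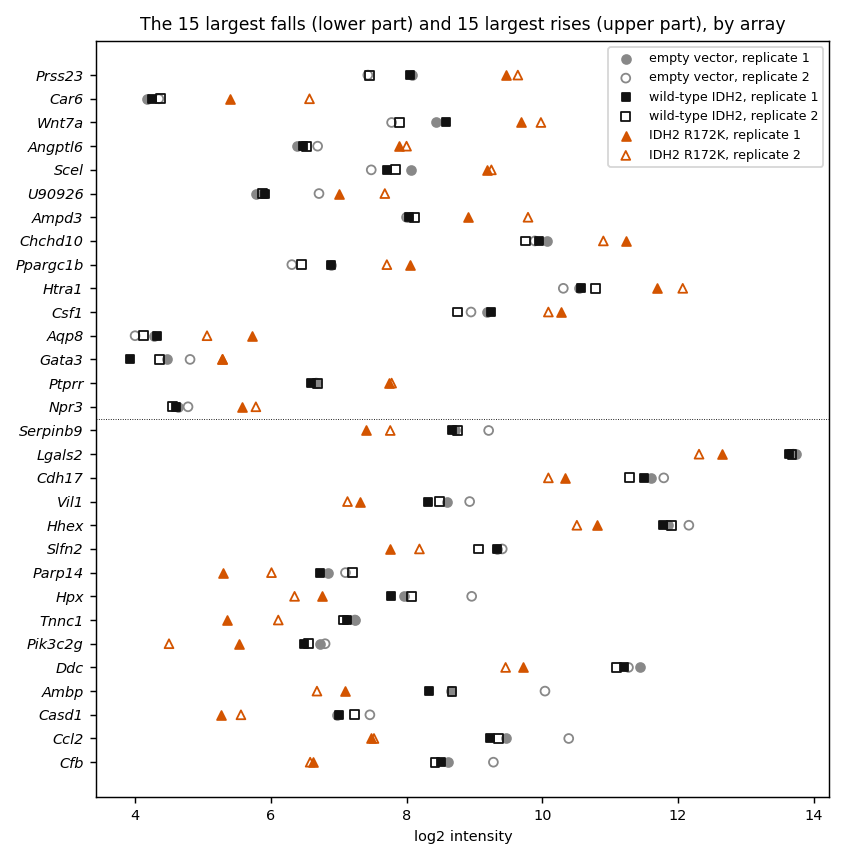
Log2 intensity (x axis) of the 15 largest rises and 15 largest falls on each array of the empty vector (circles), wild-type IDH2 (squares) and R172K (triangles) groups, with replicate 1 filled and replicate 2 open. The 30 genes were chosen so that both R172K arrays lay outside the range of the wild-type IDH2 arrays. The vector arrays lay mostly beside the wild-type ones.

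Intestinal and mucosal genes, a list of 20 measured genes, had 4 falls and no rise, with a median of -0.20. Among all genes tested 1.14% fell and 0.597% rose, and the median was -0.05. Cdh17, the liver-intestine cadherin, fell from 11.50 and 11.29 to 10.33 and 10.09 (-1.18, SE 0.16, limma adjusted p = 0.00317). Vil1, villin, which bundles actin in microvilli, fell from 8.32 and 8.48 to 7.31 and 7.13 (-1.18, SE 0.15, adjusted p = 0.00303). Krt20, a keratin of the gut lining, fell from 11.88 and 12.08 to 10.86 and 11.13 (-0.98, SE 0.11, adjusted p = 0.00158), and Tspan8, a tetraspanin, fell by 0.45. In all 4 genes, as in every called fall, both R172K cultures lay below both wild-type cultures. Lgals2, galectin-2, a sugar-binding protein of the gut, fell from 13.63 and 13.68 to 12.65 and 12.31 (-1.17, SE 0.12, adjusted p = 0.00156), one of the strongest signals among the falls. The calls of Krt20 and Lgals2 held in all 14 alternatives, that of Cdh17 in all but array weights, that of Vil1 was lost without wild-type IDH2 replicate 2, and that of Tspan8 without either wild-type IDH2 culture. The summed intensity of the intestinal list was 24781 and 22693 in the wild-type IDH2 cultures and 14704 and 14467 in the R172K cultures. This sum includes the 4 called genes, so it is not separate from their falls. The lowest difference in the list was -1.65, in a gene that did not pass.

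Epithelial junction and keratin genes had 3 falls among 27 measured and no rise, with a median of -0.11. Of all genes tested, 1.14% fell and 0.597% rose, with a median of -0.05. The 3 falls were those of Cdh17, described above, Cldn2 and Krt18. Cldn2, a claudin that forms water and cation pores, fell by 0.56 (limma adjusted p = 0.00598), and Krt18, a keratin of simple epithelia, by 0.26 (adjusted p = 0.0338). Epcam, a surface adhesion protein of epithelial progenitors in the biliary list, fell by 0.94 (SE 0.21, adjusted p = 0.0419). Epcam read 8.99 and 9.53 with wild-type IDH2 and 8.25 and 8.39 with R172K, without overlap. The calls of Epcam, Cldn2 and Krt18 were lost without either wild-type IDH2 culture. Those of Epcam and Krt18 were also lost without R172K replicate 1, as was the call of Anxa4. The calls of Krt18 and Anxa4 were also lost with centred arrays and with cyclic loess, and that of Epcam with cyclic loess. Among 17 biliary genes, Epcam and Anxa4, an annexin, fell and none rose, with a median of -0.07. The biliary markers Krt7, Krt19 and Sox9, a transcription factor of bile duct progenitors, differed by 0.01, 0.05 and 0.01, with adjusted p of 0.982, 0.775 and 0.987.

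Hnf4a, the factor named in the series title, read 11.46 and 11.60 with wild-type IDH2 and 10.90 and 10.85 with R172K, a 1.58-fold fall (-0.66, SE 0.11, limma adjusted p = 0.0162). The vector cultures read 11.51 and 11.61, so the R172K cultures were the low ones of these 3 groups. All 4 Hnf4a probe sets were lower with R172K, by -1.14 to -0.37. The difference ranged from -0.73 to -0.58 with 1 culture left out, and its call was lost without R172K replicate 1 and without either wild-type IDH2 culture. Hhex, a homeobox factor needed to form the liver bud, fell further, from 11.78 and 11.91 to 10.81 and 10.51 (-1.18, SE 0.15, adjusted p = 0.00303), and lost its call without wild-type IDH2 replicate 2. These were the 2 falls among 20 measured hepatocyte transcription factors, none of which rose, beside 1.14% falls and 0.597% rises among all genes. The list had a median of -0.16, at -0.21 in R172K replicate 1 and -0.12 in R172K replicate 2. The medians of all genes were -0.05, -0.09 and -0.01. Foxa2, a pioneer factor of endoderm, read 11.45 and 11.54 with wild-type IDH2 and 10.97 and 11.37 with R172K, a difference of -0.32 (adjusted p = 0.182) that ranged from -0.52 to -0.12 with 1 culture left out. Cebpa, a factor of mature hepatocytes, differed by -0.12 (adjusted p = 0.787). None of 22 enzymes of hepatocyte metabolism passed the test in either direction, and their median was -0.02. Alb, albumin, read 4.74 and 4.58 with wild-type IDH2 and 4.40 and 4.29 with R172K, all at or below the lower quartile, so the defining product of hepatocytes was near background in both groups.

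Since Hnf4a fell, promoters of the called genes were searched for letters of the HNF4 motif. RefSeq windows of build GRCm38.p6, from 250 bases before to 50 after each start, were held for 116 genes that fell, 60 that rose and 9887 of all genes measured. The motif CAAAGNNCA, searched on both strands, was in windows of 9 of the 116 that fell (7.76%), 3 of the 60 that rose (5.00%) and 659 of all 9887 (6.67%). The stricter CAAAGTCCA, which lies within the first, was in 1 that fell (0.862%), Slfn2, in 0 that rose and in 70 of all genes (0.708%). The AP-1 letters TGANTCA were in 11 that fell (9.48%), 5 that rose (8.33%) and 760 of all (7.69%). Each of these shares was near that of all genes. Windows of Hpx (chr7:105600067-105600366, minus strand), Slfn2 (chr11:83064862-83065161, plus strand) and Lgals2 (chr15:78855480-78855779, minus strand), the 3 largest falls that hold the first motif, are shown to let its letters be seen, written on the strand of the gene. The capitals mark the match, which in all 3 is on the opposite strand and so appears as the reverse complement.
Hpx: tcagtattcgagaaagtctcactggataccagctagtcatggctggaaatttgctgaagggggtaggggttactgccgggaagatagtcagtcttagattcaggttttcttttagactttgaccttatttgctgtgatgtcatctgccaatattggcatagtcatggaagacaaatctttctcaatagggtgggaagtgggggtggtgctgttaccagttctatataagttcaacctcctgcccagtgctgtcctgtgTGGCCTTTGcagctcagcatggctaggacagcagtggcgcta
Slfn2: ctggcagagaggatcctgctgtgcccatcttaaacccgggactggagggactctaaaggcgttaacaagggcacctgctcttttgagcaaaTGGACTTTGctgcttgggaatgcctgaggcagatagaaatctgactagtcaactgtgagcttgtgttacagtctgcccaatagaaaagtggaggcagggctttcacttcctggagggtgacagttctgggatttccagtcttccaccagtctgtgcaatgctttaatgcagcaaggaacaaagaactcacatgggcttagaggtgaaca
Lgals2: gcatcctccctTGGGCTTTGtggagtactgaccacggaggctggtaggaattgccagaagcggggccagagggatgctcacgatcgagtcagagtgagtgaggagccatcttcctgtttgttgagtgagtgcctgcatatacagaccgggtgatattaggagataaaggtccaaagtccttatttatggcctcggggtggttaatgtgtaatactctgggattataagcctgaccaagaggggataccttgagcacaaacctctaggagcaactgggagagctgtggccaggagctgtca
The first base of the match lay 8 bases after the start in Hpx, and 159 and 239 bases before it in Slfn2 and Lgals2. A match is a description of the letters, and no binding was measured.

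The largest rise was that of Prss23. Prss23, a secreted serine protease, read 8.05 and 7.46 with wild-type IDH2 and 9.46 and 9.64 with R172K, a 3.48-fold rise (log2 difference 1.80, SE 0.33, limma adjusted p = 0.0192). Wnt7a, a secreted Wnt ligand, rose from 8.58 and 7.90 to 9.68 and 9.98 (1.59, SE 0.33, adjusted p = 0.0319). Angptl6, an angiopoietin-like protein secreted by liver, rose from 6.47 and 6.52 to 7.89 and 8.0 (1.45, SE 0.19, adjusted p = 0.00372). The wild-type replicates of Prss23 and Wnt7a stood apart by more than the R172K replicates did, while those of Angptl6 were close. Scel, sciellin, a protein of the cornified envelope of stratified epithelia, rose from 7.71 and 7.84 to 9.19 and 9.25 (1.44, SE 0.16, adjusted p = 0.00236). Csf1, the growth factor of macrophages, rose from 9.25 and 8.75 to 10.28 and 10.09 (1.19, SE 0.23, adjusted p = 0.0257), with its 4 probe sets between 0.03 and 1.19. Htra1, a secreted serine protease that cleaves matrix proteins, rose from 10.57 and 10.79 to 11.69 and 12.07 (1.20, SE 0.25, adjusted p = 0.0332). In each of these 6 genes, as in every called rise, both R172K cultures lay above both wild-type cultures. Fgf18, a secreted fibroblast growth factor, rose by 1.00 and Npr3, the clearance receptor of natriuretic peptides, by 1.10 from near background. The 3 probe sets of Npr3 differed by 0.18 to 1.10. The calls of Prss23, Wnt7a, Csf1, Htra1 and Fgf18 were lost without R172K replicate 1 and without either wild-type IDH2 culture, those of Angptl6 and Npr3 without wild-type IDH2 replicate 2, and that of Scel held in all 14 alternatives.

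Chchd10, a protein of the mitochondrial intermembrane space, rose from 9.95 and 9.75 to 11.24 and 10.90 (1.22, SE 0.14, limma adjusted p = 0.0025). Ppargc1b, a coactivator of mitochondrial and lipid genes, rose from 6.89 and 6.45 to 8.05 and 7.71 (1.21, SE 0.21, adjusted p = 0.0162). Ampd3, an AMP deaminase, rose from 8.04 and 8.12 to 8.90 and 9.79 (1.26, SE 0.22, adjusted p = 0.0162). The R172K replicates of Ampd3 stood apart, but both lay above the wild-type cultures. Ptprr, a tyrosine phosphatase that acts on ERK kinases, rose from 6.59 and 6.69 to 7.74 and 7.78 (1.12, SE 0.12, adjusted p = 0.00156), and Lifr, the receptor of leukaemia inhibitory factor, from 5.67 and 5.47 to 6.65 and 6.56 (1.03, SE 0.20, adjusted p = 0.0258). The 3 probe sets of Lifr differed by 0.26 to 1.03, and its call was lost with the mean of the probe sets. The transcript U90926 rose from 5.92 and 5.88 to 7.01 and 7.68. Car6, a secreted carbonic anhydrase, rose from 4.25 and 4.37 to 5.40 and 6.57, Aqp8, a water channel, from 4.32 and 4.12 to 5.73 and 5.06, and Gata3, a zinc finger factor of T cells and of several epithelia, from 3.92 and 4.36 to 5.28 and 5.29. The last 3 started below the lower quartile, so their folds, 3.19, 2.26 and 2.21, are set against background. Chchd10 and Ptprr kept their calls in all 14 alternatives and Gata3 in all that tested it but array weights. The calls of Ampd3, Car6 and U90926 were lost without either wild-type IDH2 culture, those of Lifr and Aqp8 also without R172K replicate 1, and that of Ppargc1b without R172K replicate 1 and without wild-type IDH2 replicate 2.

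Of 37 gene lists, 22 had no call, 10 had falls and no rise, 3 had rises and no fall, and 2 had both. Of the 747 genes measured in them, 5 rose and 20 fell, beside 0.597% and 1.14% of all genes tested, whose median was -0.05. Id1 and Id3, inhibitors of helix-loop-helix factors and targets of BMP signals, rose by 0.68 and 0.58 (limma adjusted p = 0.0300 and 0.0285). They were the 2 rises, with no fall, among 16 hepatoblast and fetal liver genes and also among 27 TGF-beta and BMP signalling genes, whose medians were -0.02 and -0.03. Afp, alpha-fetoprotein, the marker of fetal liver, read 10.48 and 10.82 with wild-type IDH2 and 11.13 and 11.63 with R172K, a difference of 0.73 that did not pass (adjusted p = 0.105). Afp was thus well above background, unlike Alb. Wnt7a was the 1 rise among 24 Wnt genes, and Csf1 and Ccl2 the 1 rise and 1 fall among 25 chemokines and cytokines. Htra1 rose and Mmp14, a membrane-bound collagenase activator, fell (by 0.43) among 29 integrin, laminin and matrix genes, while Fosl1, an AP-1 subunit, fell by 0.52 among 25 ERK and AP-1 genes. Ctsa, cathepsin A, and Gusb, beta-glucuronidase, were the 2 falls among 23 lysosomal genes, at -0.65 and -0.54. Plin2, a coat protein of lipid droplets, was the 1 fall among 18 genes of fatty acid oxidation and PPAR targets, at -0.58 (adjusted p = 0.0162). All of these calls, from Id1 to Plin2, were lost without either wild-type IDH2 culture and without R172K replicate 1.

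Lists tied to the known chemistry of the mutant enzyme had no call, beside 1.73% of all genes tested. At that share lists of this size would hold few calls or none, so their lack says little about them. None of 26 measured 2-oxoglutarate-dependent dioxygenases, 28 enzymes of the citric acid cycle and glutamate, 8 enzymes that make or remove 2-hydroxyglutarate, 17 DNA methyltransferase and Polycomb genes or 21 hypoxia response genes passed, and their medians ran from -0.06 to 0.08. The Idh2 probe set read 10.86 and 10.78 with wild-type IDH2 and 10.82 and 10.94 with R172K (0.06, SE 0.077, limma adjusted p = 0.711). It read alike in both groups and checks neither label, since the species of the introduced sequence is not given. Idh1, the cytosolic enzyme, read 11.91 and 12.28 with wild-type IDH2 and 11.21 and 11.78 with R172K (-0.60, adjusted p = 0.100). The 27 mitotic and replication genes had no call and a median of 0.04, and Cdkn1a, the cell cycle inhibitor p21, differed by -0.27 (adjusted p = 0.621).

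Interferon response and antigen presentation genes, 23 measured, had no call and a median of -0.20, at -0.34 in R172K replicate 1 and -0.17 in R172K replicate 2. All genes tested had medians of -0.05, -0.09 and -0.01 in the same order, and of them 1.14% fell and 0.597% rose. H2-D1 and B2m, the heavy and light chains of class I histocompatibility molecules, differed by -0.56 and -0.36 (limma adjusted p = 0.123 and 0.0747). Nfkbia, the inhibitor of NF-kappaB, differed by -0.68 (adjusted p = 0.128) and Cxcl5, a neutrophil chemokine, by -0.88 (adjusted p = 0.260), beside the called falls of Ccl2 and Cfb. Markers of other cell types gave 1 call: Cd14, the lipopolysaccharide coreceptor of monocytes that hepatocytes also make, fell by 0.75 (adjusted p = 0.0283) among 14 blood cell markers, a call lost without R172K replicate 1 and without either wild-type IDH2 culture. The summed intensity of the blood list was 1324 and 1341 with wild-type IDH2 and 916 and 1148 with R172K. This sum includes Cd14, at log2 9.74 and 9.79 against 8.79 and 9.24. It therefore does not show a fall of the other 13 blood cell markers, none of which passed. The summed intensity of 15 endothelial markers, none called, was 588 and 574 against 652 and 614. None of 25 mesenchymal markers passed. The part of other cell types in the falls of Cd14, Ccl2 and Cfb was not tested.

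**Figure D3:**
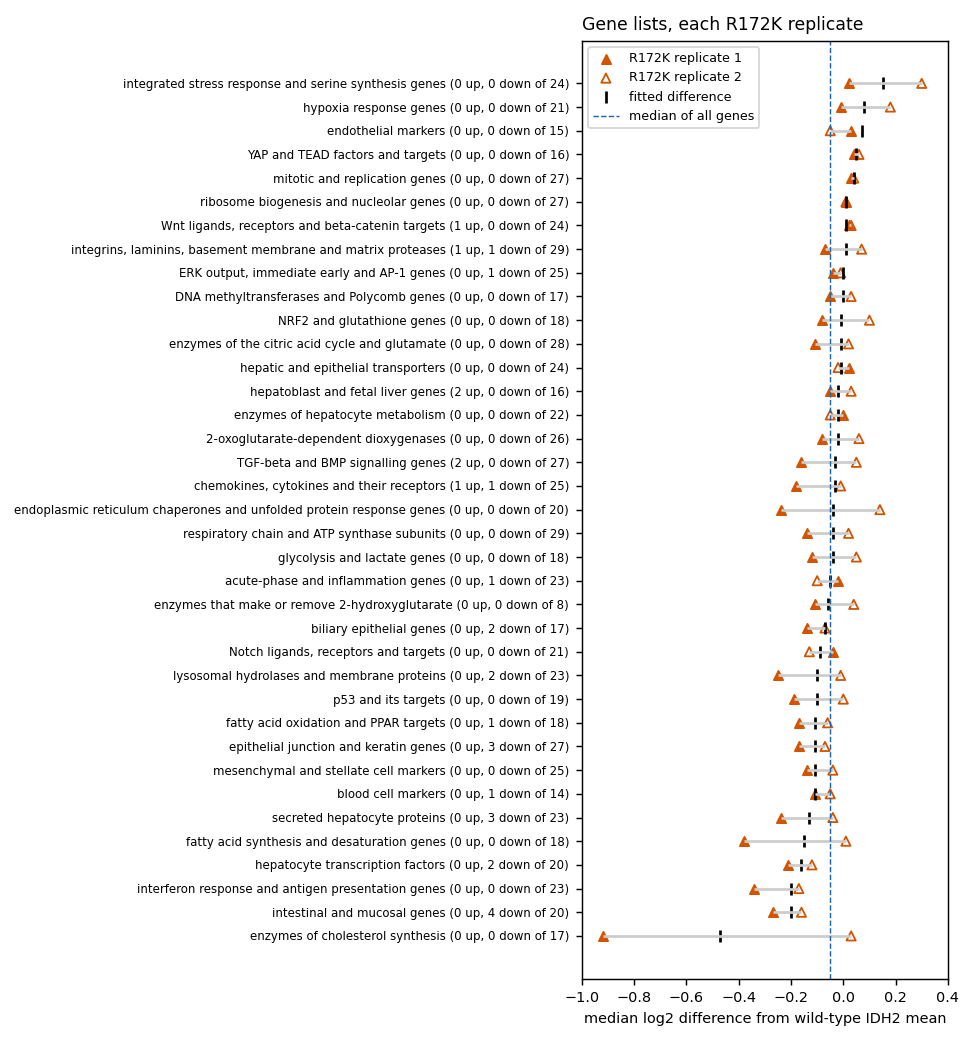
For each gene list, the median log2 difference of its measured members from the wild-type IDH2 mean, in R172K replicate 1 (filled triangles) and R172K replicate 2 (open triangles), with the median of the fitted differences (black bar) and, in brackets, the numbers of members that rose and fell. Most lists lay within 0.2 of the median of all genes (dashed line), and enzymes of cholesterol synthesis showed the widest gap between replicates, from -0.92 to 0.03.

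For enzymes of cholesterol synthesis the R172K replicates mostly stood on different sides of wild-type IDH2 replicate 1. All 17 measured genes of the list were lower with R172K on average, with a median of -0.47, but none passed the test, and their adjusted p ran from 0.192 to 0.81. R172K replicate 1 lay below both wild-type cultures in 17 of 17 genes (median -0.92), whereas R172K replicate 2 lay between the wild-type cultures in 15 and above both in 1 (median 0.03). Fdps, farnesyl diphosphate synthase, read 12.08 and 12.80 with wild-type IDH2 and 11.64 and 12.26 with R172K, and Hmgcs1, the enzyme that makes the substrate of HMG-CoA reductase, 13.07 and 13.69 against 12.83 and 13.40. In both forms replicate 1 was the lower culture for all 17 genes, by a median of 0.69 with wild-type IDH2 and 0.94 with R172K. Replicate 1 was also the lower culture in 17 of the 17 genes with vector, 16 with wild-type IDH1 and 16 with R132C. Between cultures of the same number, R172K lay below wild-type IDH2 in 17 genes for replicate 1 (median -0.55) and in 16 for replicate 2 (median -0.30). The labels do not say that a number marks a shared batch or day. The fatty acid synthesis list behaved alike, with medians of -0.38 and 0.01 in the R172K replicates and no call among 18 genes. The list of the integrated stress response and serine synthesis lay at 0.02 and 0.30, with no call among 24.

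**Figure D4:**
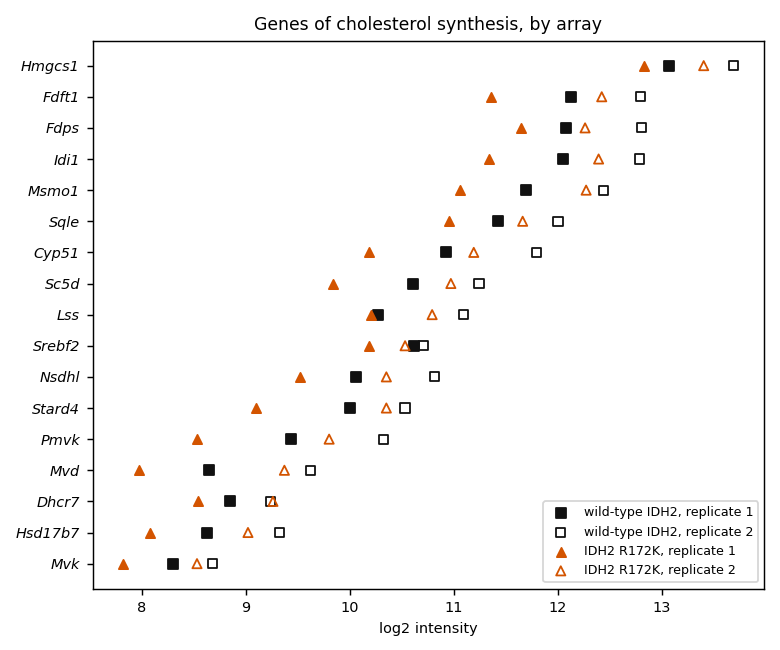
Log2 intensity (x axis) of 17 genes of cholesterol synthesis on each array of wild-type IDH2 (squares) and R172K (triangles), with replicate 1 filled and replicate 2 open. R172K replicate 1 was the lowest array in all 17 genes, and R172K replicate 2 lay between the wild-type arrays in 15.

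The wild-type form was set against the empty vector to see how far the control itself had moved. Wild-type IDH2 against vector gave 0 calls with limma, and no setting that kept both cultures of each group gave a call. An unadjusted p under 0.05 was reached by 116 genes, where 619.7 would be expected if nothing differed. With fewer small p than expected the test was a strict one here, so 0 calls do not show that the control had not moved. R172K against vector gave 142 rises (1.15%) and 387 falls (3.12%), 529 calls in all (4.27%), with 216 without R172K replicate 1, 2596 without R172K replicate 2 and 70 without vector replicate 2. These comparisons share arrays with the main one, so their values stand side by side without further reading. Cfb read 8.61 and 9.28 in the vector cultures, Ccl2 9.47 and 10.39, Ambp 8.65 and 10.04, and Hpx 7.96 and 8.96. In these 4 genes vector replicate 2 was the highest culture of the 3 groups, and both vector cultures lay above both R172K cultures. Lifr read 5.90 and 6.27 in the vector cultures, between the forms, and its difference of 0.52 between R172K and vector did not pass (limma adjusted p = 0.166). Gata3 read 4.47 and 4.81 in the vector cultures, below both R172K cultures.

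IDH1 R132C against wild-type IDH1 on collagen is the like comparison for the cytosolic enzyme. It shares no array with the R172K comparison, though the fit used the same estimate of each gene's spread for both. With R132C, 932 genes had an unadjusted p under 0.05 with limma, with 619.7 expected if nothing differed. The R132C comparison gave 6 rises (Antxr1, Fgf18, Iqgap2, Lifr, Ptprr and Scel) and 0 falls (0.0484% of genes). This count was 0 when any 1 of its cultures was left out. Fgf18, Lifr, Ptprr and Scel also rose with R172K. Fgf18 rose by 1.12 with R132C and 1.00 with R172K, Lifr by 1.31 and 1.03, Ptprr by 0.83 and 1.12, and Scel by 1.16 and 1.44. Of the 74 genes that rose with R172K, 71 were higher with R132C (95.9%, against 52.7% of all genes), and of the 141 that fell, 134 were lower (95.0%, against 47.3%). The median with R132C was 0.30 for the 74 and -0.27 for the 141, and 3 rises and 2 falls were as large as with R172K. These genes were chosen on their R172K differences, which favours larger values there, so the sizes do not compare the mutants. Across all genes the differences correlated at r = 0.43, as a description, since genes are not independent. Over all genes the SD of the difference was 0.234 for R172K and 0.179 for R132C.

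The difference between the effects was tested directly for each gene. With limma, 0 genes passed (smallest adjusted p 0.739). An unadjusted p under 0.05 was reached by 653 genes, near the 619.7 expected if nothing differed. Gaps, R172K effect minus R132C effect, are given with 95% intervals that are not adjusted for the number of genes. Most of the genes given were chosen for a large R172K effect on these same arrays. That choice tends to move both gap and interval away from 0. Angptl6 rose with R172K and differed by 0.03 with R132C, a gap of 1.42 (0.82 to 2.01). Among the falls, the gap was -1.60 for Ccl2 (-2.61 to -0.59), -1.34 for Ambp (-2.34 to -0.34), -1.28 for Pik3c2g (-2.09 to -0.47), -1.26 for Hpx (-2.03 to -0.49) and -1.05 for Cfb (-1.84 to -0.26). For these 5 falls the R132C differences were -0.19, -0.27, -0.23, -0.11 and -0.82. Smaller gaps were seen for Ddc, at -0.99 (-1.47 to -0.51), and Hhex, at -0.94 (-1.40 to -0.47). Cxcl5, which did not pass with R172K, had a gap of -1.10 with an interval from -2.26 to 0.06. Car6 and Gata3 differed by -0.34 and 0.15 with R132C, but their levels without R172K were near or below the lower quartile, so no gap is given for them. For Hnf4a, which differed by -0.41 with R132C, the gap was -0.24 (-0.59 to 0.11), for Prss23, at 1.54 with R132C, it was 0.25 (-0.74 to 1.25), and for Scel it was 0.29 (-0.22 to 0.79). These 3 intervals include 0, which leaves gaps of up to their bounds.

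**Figure D5:**
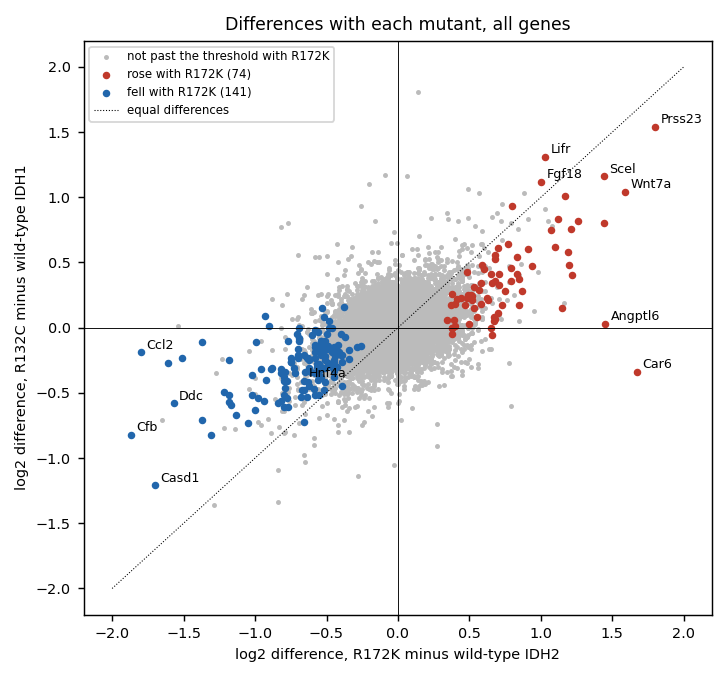
Each point is a gene, with the log2 difference R172K minus wild-type IDH2 on the x axis and R132C minus wild-type IDH1 on the y axis, coloured by the call with R172K. Most of the 74 rises and 141 falls lay on the same side of 0 with both mutants but nearer to 0 with R132C, while Angptl6 and Ccl2 lay near 0 with R132C. The coloured genes were chosen on their R172K difference, which favours larger values with R172K.

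The same genes were looked up in the vector cultures, uncoated against collagen, a comparison that shares no array with R172K or wild-type IDH2. In it 3628 genes passed (15.1% higher and 14.2% lower on uncoated plates). Each gene's spread was estimated once for both comparisons, so a gene called with R172K passes more readily here too. The shares called below are therefore not independent of the R172K calls. Uncoated plates are the setting of the hepatocyte differentiation assay of the study. Of the 141 genes that fell with R172K, 77 were higher on uncoated plates (54.6%) and 8 lower (5.67%), with a median of 0.43. Among them, Hpx was higher by 2.78, Ambp by 2.53 and Vil1 by 2.08 on uncoated plates. Of the 74 that rose, 17 were higher (23.0%) and 25 lower (33.8%), with a median of -0.16, and Htra1 was lower by -3.96. The median of all genes there was -0.02.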

How the data were processed

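The series measured RNA from 14 cultures of hepatoblasts on Affymetrix mouse expression arrays, with 2 cultures for each of 7 groups. The authors deposited intensity values summarised by RMA, per the submitters' processing notes. The values were positive and ran from 5.84 to 26770, a linear scale, so log2 of them was taken. The notes name no version or setting. Arrays limit the precision through their number, 2 for each group. RMA usually draws the arrays to a common distribution of probe intensities, so that a difference is relative to the other genes. R172K replicate 1 kept a lower median intensity, 134.9 against 144.8 to 148.3 on the other arrays. Its differences also carry that offset.

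Of 22690 probe sets, 20380 carried 1 gene symbol, 691 several, 1555 were not in the platform table used and 64 were controls. The 12393 genes were each given the brightest of their single-symbol probe sets, by the mean over all arrays. Other probe sets served as an alternative only. limma 3.58.1 in R 4.3.3 fitted the 7 group means to all 14 arrays (7 residual and 5.67 prior degrees of freedom, intensity trend), and a gene was called at an adjusted p under 0.05 (Benjamini-Hochberg, over all genes). Fits were run on simulated data to check the code, which is no test of the calls reported here.

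The comparison, 37 gene lists (829 genes, 747 measured) and the tests were chosen with earlier results of these data known. The motifs and the comparison of plates in vector cells were added after the values were seen. Genes named were the 15 largest rises and falls without overlap, leaving out predicted genes, up to 4 called members of each list or the 2 brightest where fewer than 2 passed, genes called in the same direction with both mutants, and a fixed set of IDH, liver and bile duct genes, trimmed in the text to those described; any other named gene was chosen after its values were seen.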

Additional observations from a re-analysis of the deposited data

How the results depend on the processing

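The 215 calls between R172K and wild-type IDH2 became 141 with only arrays on collagen, 9 with array weights, 41 with the 4 arrays alone and 480 with the replicate block, and ranged from 14 to 2332 with 1 culture left out. The other settings gave 158 to 249. The replicate numbers were not taken to pair the cultures: the r of replicate differences ran from 0.111 to 0.487 over the 10 pairs of collagen groups and from -0.0408 to 0.487 over all 21, with 2 numbers only. With the replicate block, 5 of 17 genes of cholesterol synthesis passed, all lower with R172K, among them Fdps. The 529 calls against vector became 337, 40, 45 and 904 in the same order, and 70 to 2596. The 6 calls of R132C became 3 with centred arrays, 0 with cyclic loess, with the mean of the probe sets, with every probe set, with only collagen arrays and with 16 units added before log2, 39 with array weights, 49 with the replicate block and 0 with any culture left out. The 0 calls for the difference of the mutant effects ranged from 0 to 85. Of the 215 genes, 7 (Chchd10, Ddc, Krt20, Lgals2, Ptprr, Scel and Tm4sf4) kept their call in all 14 settings, and 64 kept it both without R172K replicate 1 and without R172K replicate 2. With 1 culture left out, the remaining culture took its spread from the other groups. Uncalled differences changed sign for Sox9 (-0.16 to 0.19), Krt7 (-0.20 to 0.22), Krt19 (-0.05 to 0.15), Hmgcs1 (-0.57 to 0.05) and Cebpa (-0.30 to 0.05). With 2 cultures a group and levels near background, differences in dim genes such as Alb could not be resolved.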

Other observations

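Called genes outside the lists included members of several families that moved in both directions. They were picked after their values were seen, are not complete, and each is given with the number of the 14 alternatives in which it kept its call.

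Among proteins of cell junctions and polarity, Spint1, an epithelial protease inhibitor, fell from 7.79 and 7.75 with wild-type IDH2 to 6.66 and 6.78 with R172K (-1.05, SE 0.14, limma adjusted p = 0.00303, 13 alternatives). Marveld2, tricellulin, fell from 7.17 and 7.31 to 6.13 and 6.31 (12 alternatives), Lsr, its partner at the corners between cells, by 0.66 (9 alternatives) and Crb3, an apical polarity protein, by 0.71 (8 alternatives). Others rose: Pkp1, a plakophilin of desmosomes, from 8.11 and 8.26 to 8.82 and 9.24 (0.85, adjusted p = 0.0192, 10 alternatives), Cgnl1, paracingulin, by 0.58 (10 alternatives), Podxl, podocalyxin, by 0.77 (9 alternatives), Dlg1, a scaffold of the lateral membrane, by 0.38 (8 alternatives) and Celsr1, a planar polarity cadherin, by 0.80 (6 alternatives).

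Among genes induced by interferon, Irgm1, a GTPase, fell from 10.22 and 10.16 to 9.40 and 9.44 (-0.77, limma adjusted p = 0.00483, 10 alternatives) and Psmb10, a subunit of the immunoproteasome, by 0.63 (9 alternatives), whereas Isg20, an exonuclease, rose from 9.66 and 9.94 to 10.67 and 10.75 (0.91, adjusted p = 0.00649, 12 alternatives). Among mitochondrial proteins, Cox18 and Top1mt rose by 0.51 and 0.57 (9 alternatives each), whereas Cox20 fell by 0.58 (9 alternatives), Msrb2 by 0.78 and Ech1 by 0.54 (8 each), Atpif1 by 0.39 (7) and Coq8b by 0.56 (5). The lists of interferon response genes and of respiratory chain subunits had no call.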
